A study of Anser cygnoides with 12 samples.

Results

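In RNA from pectoral (breast) muscle of the Xingguo grey goose (Anser cygnoides), a small set of gene models had many reads in some libraries and no read, or 1 read, in others. These are called intermittent models here. They were chosen by their counts from a table of 23065 gene models in 12 libraries. Muscle rich in intramuscular fat gave 5 of the libraries (high_IMF) and muscle poor in it gave 7 (low_IMF). The high_IMF libraries are M001, M006, M0011, M0027 and M0035, and the low_IMF libraries are F001, F006, F009, F0010, F0011, F0013 and F0016. The labels name no age, treatment or strain difference between the groups, do not explain the letters M and F, which follow the groups, and do not say whether the libraries came from different birds. The p-values therefore measure the spread between these libraries.

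A model was taken where at most 1 read count was found in 3 or more of the 12 libraries and where at least 1 library reached 5 CPM (the model's count for each 1000000 counts of the library's total). Models on the sequences named chr12, chr23, chr25, chr31, chr35 and chr37 and on contigs were left out, which left 18782 models, and 62 of these met the rule. In the following, a model is absent from a library at 1 count or less, present at 2 counts or more, and high at 5 CPM or more. The models were thus selected on the counts of all 12 libraries, so the absences and the high values are a description and carry no test. The rule did not use the 2 groups.

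Breast muscle drives flight and is built mainly of muscle fibres, with blood vessels, nerves, connective tissue and fat cells between them. Intramuscular fat is the fat stored among the fibres. A count of 0 says that no read was assigned to a model in that library, not that the gene is silent in the animal. Poly(A) RNA was sequenced, and in bulk tissue fewer cells of a type and less RNA per cell cannot be told apart. The IDs of the table begin with evm.model, followed by a sequence name and a running number, or with Anser_cygnoides_newGene, followed by a number that gives no position. None of the IDs was paired with a gene name, as 0 of them matched the RefSeq gene table of a Taihu goose assembly, so no gene role, tissue marker or sequence is given for any model.

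Total counts ran from 13481727 (F0010) to 18458606 (M0011). At these depths 3 counts, the upper limit that a count of 0 allows, correspond to 0.163 to 0.223 CPM, and this limit covers counting error only. It takes reads to be counted independently of each other, which was not tested. Counts of 1 were rarer than counts of 2 (2242 against 6938), so the limit may be too low. The least folds built on it may then be too large. The factors of the trimmed mean of M values (TMM), which correct for a few very abundant transcripts taking a large part of a library, were 0.499 in M001 and 0.682 in M0011, 1.36 in F0013 and between 1.01 and 1.15 in the other 9 libraries.

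The intermittent models were rare among transcripts that reached 5 CPM anywhere. Of 9287 such models, 9075 (97.7%) were present in all 12 libraries, 150 were absent from 1 or 2 libraries and 62 from 3 or more. Over the 62 models and 12 libraries there were 744 values, of which 294 (39.5%) were absences, 290 of them counts of 0 and 4 counts of 1. Of the 62 models, 26 were absent from exactly 3 libraries, 10 from 4, 8 from 5, 6 from 6 and 12 from 7 or more. They were scarce even where they were highest, with a median highest value of 8.92 CPM (range 5.19 to 132 CPM) where the median over the 9287 models was 26.1 CPM, and 38 of the 62 stayed under 10 CPM. The limit of 5 CPM fell in a dense region, since 14 models had a highest value from 5 to under 6 CPM and 17 models with as many absences had one from 4 to under 5 CPM. Just inside it were evm.model.chr14.1064.g (5.19 CPM) and Anser_cygnoides_newGene_6674 (5.22 CPM), and just outside it Anser_cygnoides_newGene_2037 (4.97 CPM) and Anser_cygnoides_newGene_8260 (4.81 CPM).

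Models without a position were frequent in the set. Of the 62, 36 (58.1%) were newGene models, against 1713 (18.4%) of the 9287 models at 5 CPM. The other 26 lay on 19 of the 33 chromosomes considered, with no more than 2 on any of them.

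**Figure D1:**
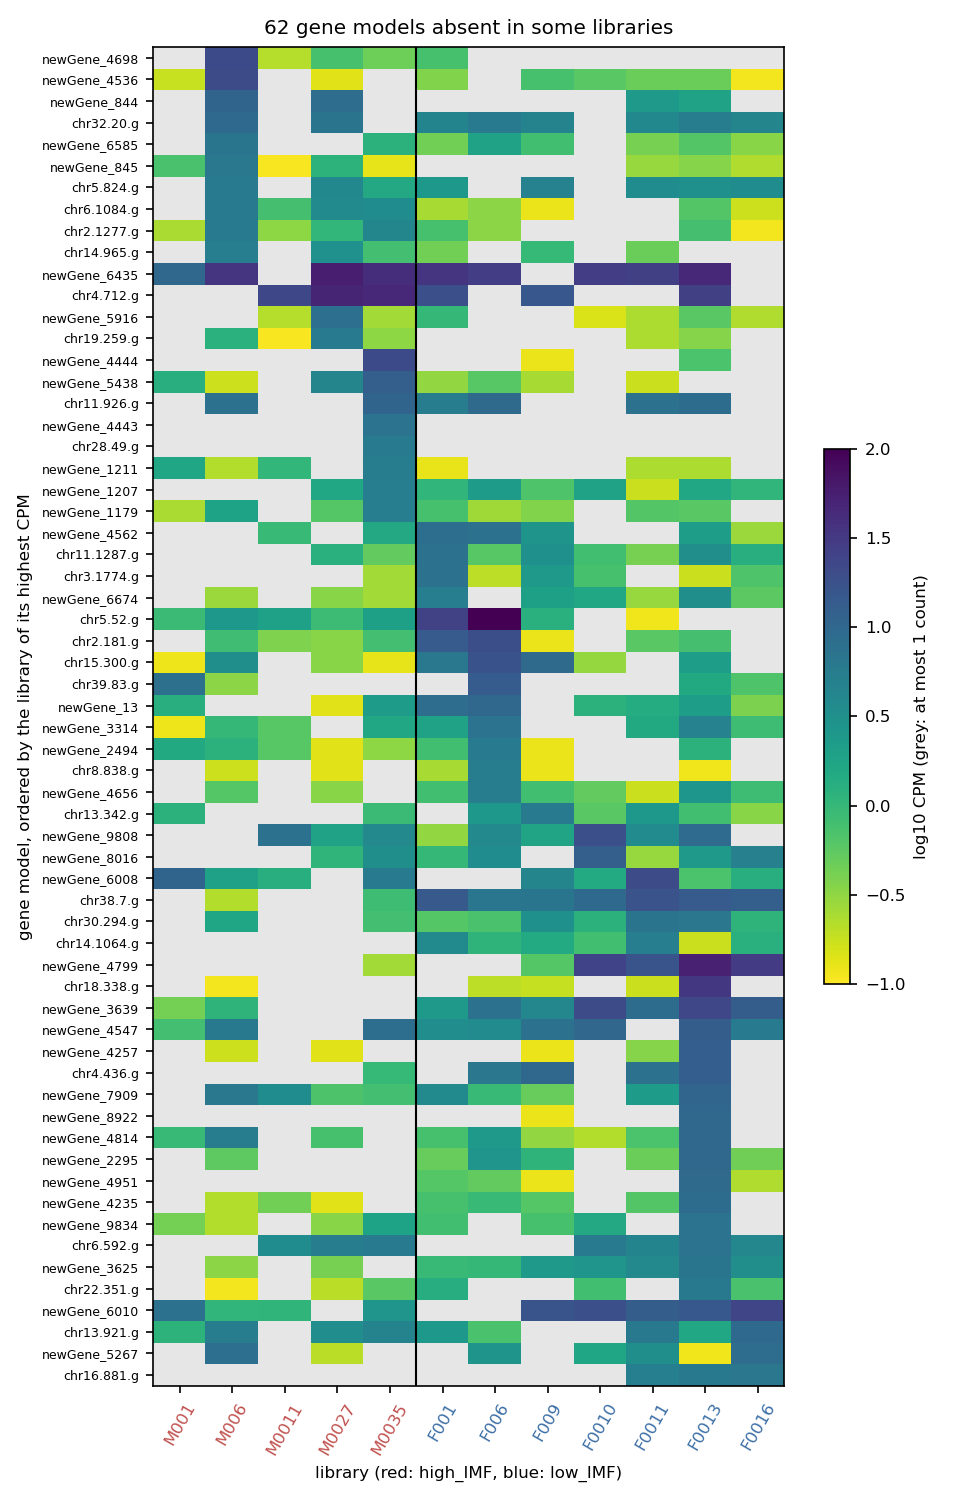
Level of each of the 62 models (rows, ordered by the library of their highest value) in each library (columns, high_IMF left of the line), as log10 CPM on a colour scale that ends at -1 and 2, with grey for at most 1 count. Grey cells (294 of 744) are spread over both groups and over all libraries, and are densest in M001, M0011 and F0010.

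Absences were unevenly spread over the libraries. M0011 lacked 43 of the 62 models, M001 lacked 41 and F0010 lacked 35, while F0013 lacked only 6. The other 8 libraries lacked 18 to 27. M001 and M0011 had the lowest TMM factors, F0013 the highest factor, and F0010 the smallest total count. M0011 also had the largest total count, and the TMM factor of F0010 was 1.14. The part of depth and composition in the absences was not tested. The same 4 libraries stood at the ends over all 9287 models at 5 CPM, of which 96 were absent from M001, 73 from F0010, 67 from M0011 and 8 from F0013, with 24 to 49 in the other libraries. These 9287 include the 62, which gave 43 of the 67 absences in M0011, so this is in part a repeat of the same counts.

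Between the groups, 147 of 310 values (47.4%) were absences in high_IMF and 147 of 434 (33.9%) in low_IMF. Per library this was 29.4 ± 11.8 models (SD, n = 5) in high_IMF and 21.0 ± 8.94 models (SD, n = 7) in low_IMF. Without M001 and M0011 the high_IMF mean was 21.0 ± 3.61 models (SD, n = 3). Both libraries were chosen after seeing the data, as those with the most absences, so a lower high_IMF mean follows from the choice. F0010, which also lacked many models, was kept in low_IMF. The difference between the groups was not tested. Without both libraries 38 of the 62 models still met the rule.

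**Figure D2:**
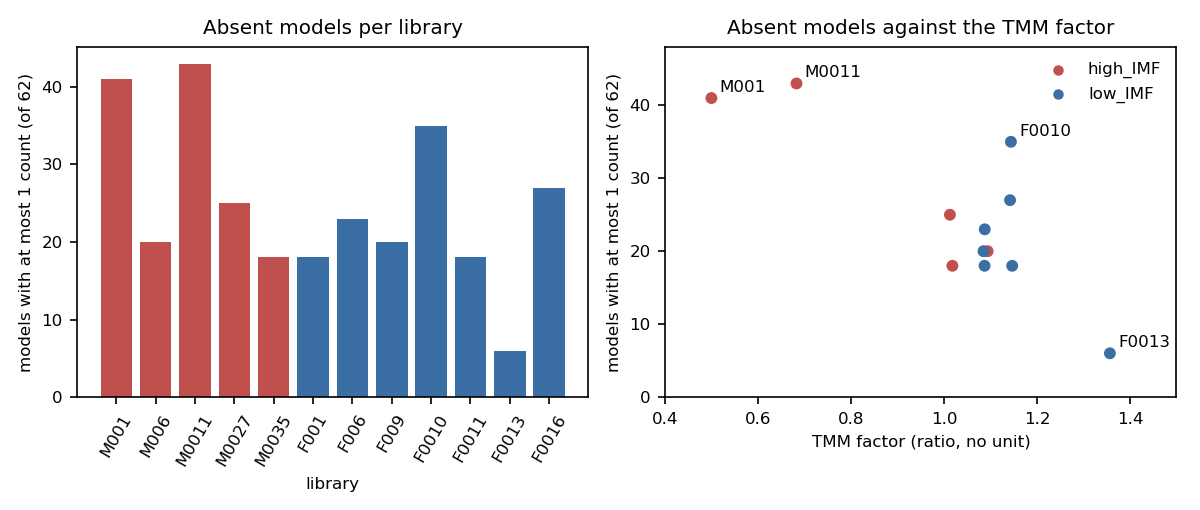
Left, the number of the 62 models with at most 1 count in each library (bars, red high_IMF, blue low_IMF). Right, the same number against the library's TMM factor (points, 1 per library), where M001 (41) and M0011 (43) lie at the lowest factors and F0013 (6) at the highest.

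A few models had only 2 states, with no library between absence and 5 CPM. This was so for 6 of the 62, and for 4 of the 150 models that were absent from 1 or 2 libraries. In 4 of the 6, 3 or more libraries were high, and in the other 2 only M0035 was.

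Of the 62 models, evm.model.chr4.712.g had the highest unscaled minimum over the libraries in which it was present. It had 410 counts in M0011, 711 in M0027 and 708 in M0035, and 0 in M001 and M006. In low_IMF it had 297 counts in F001, 250 in F009 and 464 in F0013, and 0 in F006, F0010, F0011 and F0016. Both groups were split, with 3 of 5 high_IMF and 3 of 7 low_IMF libraries high. That minimum was 15.4 CPM (F009) and its highest 48.6 CPM (M0027). At the lowest TMM-scaled level of the high libraries, the 6 libraries without it would have held 118 to 288 counts, and each held 0. The groups did not differ past the threshold (edgeR log2 fold change of high_IMF over low_IMF 1.81, SE 1.42, adjusted p = 0.396).

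Anser_cygnoides_newGene_6435 was high in 9 libraries and had 0 counts in M0011, F009 and F0016. It had 166 counts in M001, 623 in M006, 822 in M0027 and 625 in M0035. In low_IMF it had 574 counts in F001, 434 in F006, 386 in F0010, 465 in F0011 and 785 in F0013. Apart from M001 (9.94 CPM), the high libraries lay between 27.1 and 56.2 CPM. In the libraries without it, 251 to 404 counts would have stood at the lowest TMM-scaled level. This range overlaps the 118 to 288 counts of evm.model.chr4.712.g, and both of its ends are higher. M0011 lacked 43 of the 62 models, F009 lacked 20, and F0016 lacked 27, the most after M0011, M001 and F0010.

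The same kind of split was seen at lower levels. The counts of evm.model.chr11.926.g were 138 in M006 and 167 in M0035, and 0 in M001, M0011 and M0027. In low_IMF it had 87 counts in F001, 140 in F006, 132 in F0011 and 149 in F0013, and 0 in F009, F0010 and F0016. Its present libraries lay between 5.40 and 10.9 CPM, and the groups overlapped fully (edgeR log2 fold change -0.07, SE 1.31, adjusted p = 0.975).

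The pattern of evm.model.chr16.881.g followed part of 1 group. It had 86 counts in F0011, 104 in F0013 and 115 in F0016, and 0 in the other 4 low_IMF libraries and in all 5 high_IMF libraries. Its 3 high values, 5.02 to 6.48 CPM, were close together, and the absent libraries would have held 37.2 to 87.5 counts at the lowest of them after TMM scaling.

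A pair of models missed this definition only by libraries from 3.52 to under 5 CPM. For evm.model.chr6.592.g the counts were 65 in M0011, 81 in M0027, 92 in M0035, 79 in F0010, 76 in F0011, 124 in F0013 and 72 in F0016, and 0 in M001, M006, F001, F006 and F009. For evm.model.chr32.20.g they were 170 in M006, 103 in M0027, 71 in F001, 90 in F006, 74 in F009, 69 in F0011, 92 in F0013 and 76 in F0016, and 0 in M001, M0011, M0035 and F0010. Both models had libraries with and without them in each group, and their present libraries spanned 3.52 to 7.23 CPM and 4.03 to 9.49 CPM.

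**Figure D3:**
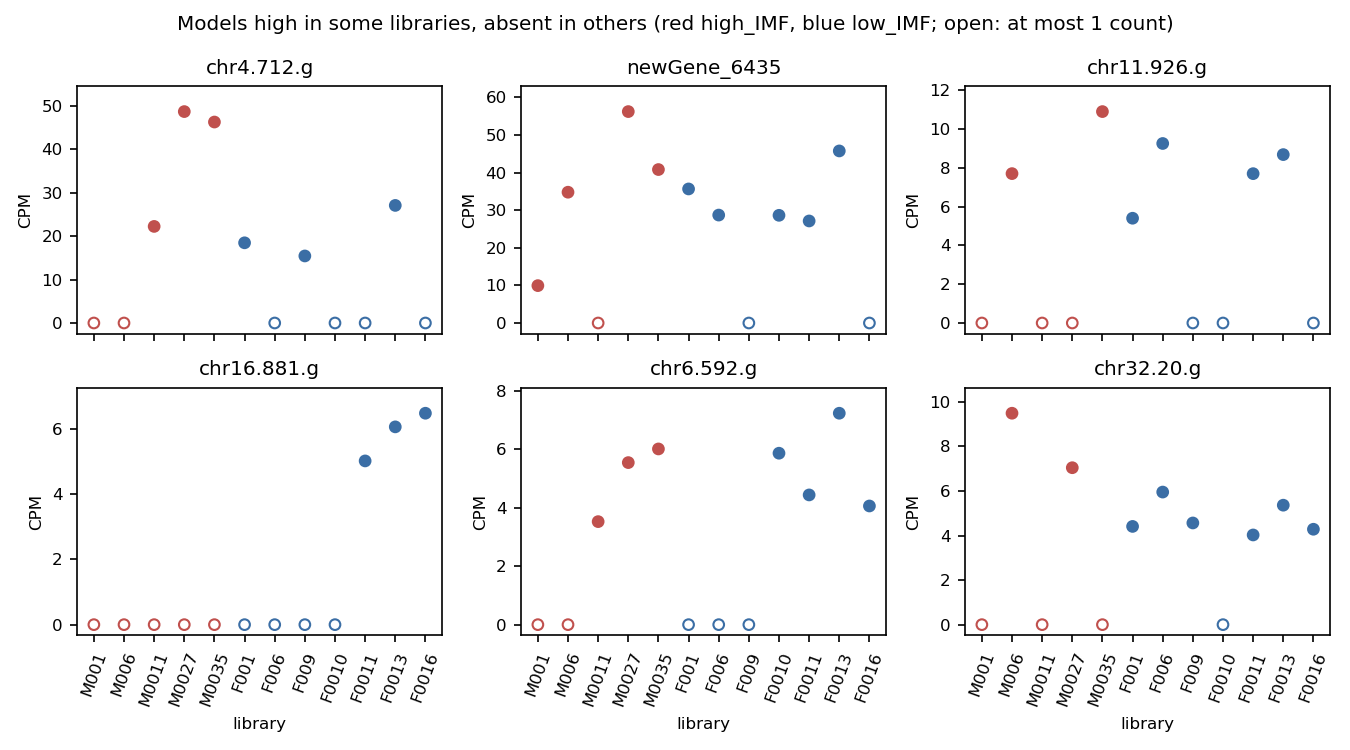
CPM (vertical axis, linear, each panel to its own scale) of 6 models in the 12 libraries (red high_IMF, blue low_IMF), with open points for at most 1 count. In each panel the filled points stand clear of 0, at 15.4 CPM or more for evm.model.chr4.712.g and at 3.52 CPM or more for evm.model.chr6.592.g, and no filled point lies near 0.

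Many models passed 5 CPM in a single library. Of the 62, 36 were high in exactly 1 library, 10 in 2, 5 in 3 and 11 in 4 or more. The single high library was F0013 for 9 of the 36, M006 for 8, M0035 for 7, F006 for 4, F001 for 3, M0027 for 2, and F009, F0010 and F0011 for 1 each. M001, M0011 and F0016 were the single high library of none. The highest library exceeded the next by less than 2-fold in 32 of the 62 models, 8 of the 36 among them. It exceeded a next library with reads at least 10-fold in 8 models, and in 2 others no other library had a read. These 10 models were found among 14 of the 9287 with such a lead.

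F0013 alone carried 4 of these 10 models. The most abundant, evm.model.chr18.338.g, had 555 counts in F0013 and 0 to 3 counts in the other 11 libraries, so that F0013 held 97.8% of its summed CPM. Anser_cygnoides_newGene_4257 had 216 counts there and 0 to 6 elsewhere, and Anser_cygnoides_newGene_8922 had 170 counts there, 2 in F009 and 0 in the other 10. For Anser_cygnoides_newGene_4951 the counts were 158 in F0013, 10 in F001, 8 in F006, 4 in F0016, 2 in F009 and 0 in the other 7. F0013 is also the library with the fewest absences and the highest TMM factor. Its lead over the next library in these 4 models ran from 14.8-fold to 163-fold, and they were picked for a lead of at least 10-fold. The part of composition in these leads was not tested.

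M0035 carried 3 of the 10. Anser_cygnoides_newGene_4443 and evm.model.chr28.49.g had 111 and 86 counts in M0035 and 0 in all 11 other libraries. In CPM without TMM scaling, M0035 stood at least 32.6-fold and at least 25.2-fold above the limit of 3 counts in each of them. At the TMM-scaled level of M0035, the other libraries would have held 59.3 to 166 counts and 46.0 to 128 counts. Anser_cygnoides_newGene_4444 had 326 counts in M0035, 12 in F0013, 2 in F009 and 0 in the other 9. M006 carried Anser_cygnoides_newGene_4698, with 376 counts against 0 to 12 elsewhere, and Anser_cygnoides_newGene_4536, with 361 counts against 0 to 12 elsewhere. F006 carried evm.model.chr8.838.g, with 83 counts against 0 to 4 elsewhere. Each of these models thus rested on 1 library of 1 group.

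The highest value of all, 132 CPM, belonged to evm.model.chr5.52.g in F006, with 2000 counts. It had 418 counts in F001, 20 in F009 and 2 in F0011, and 0 in F0010, F0013 and F0016, and between 13 (M0027) and 45 (M006) in the 5 high_IMF libraries. Here the extremes, both high and absent, lay in low_IMF, and the high_IMF libraries stood between them (edgeR log2 fold change -3.42, SE 1.67, adjusted p = 0.168).

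**Figure D4:**
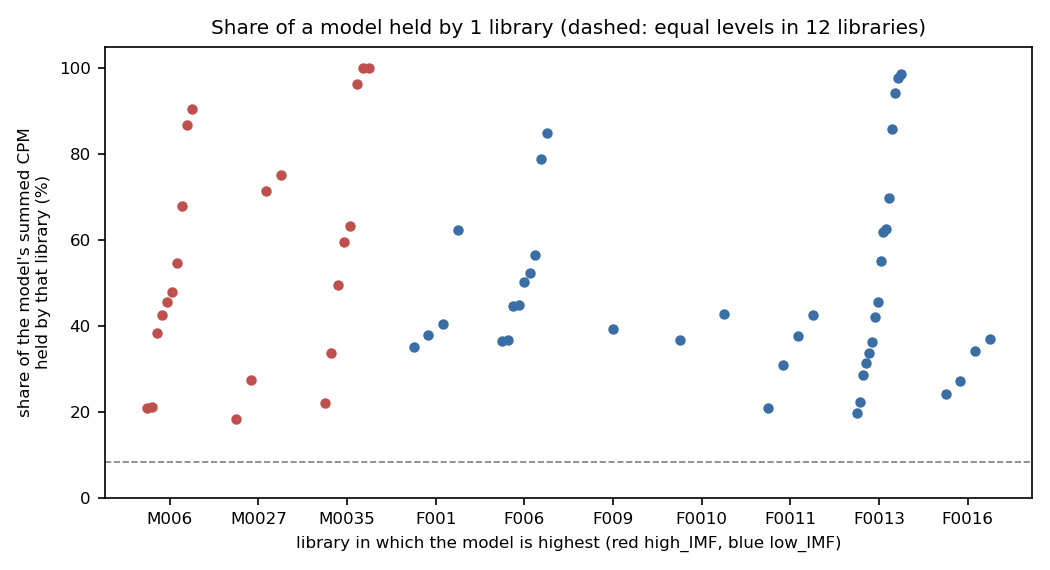
Share of each model's CPM, summed over the 12 libraries, that its highest library holds (vertical axis, percent), with the 62 models placed by that library (horizontal axis, red high_IMF, blue low_IMF) and a dashed line at equal levels in all 12. F0013, M0035 and M006 hold the models with the largest shares, up to 98.8%, 100% and 90.6%.

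Shared patterns were few. The 62 models had 56 different sets of absent libraries, and 6 sets were shared, each by 2 models. Presence began at 2 counts, under the limit of 3 counts that a count of 0 allows, so some sets rest on differences within counting error. In evm.model.chr2.181.g, for example, F009 held 2 counts and counted as present, while F0010 and F0016 held 0. M001, M0011 and M0027 were the absent libraries of evm.model.chr38.7.g and evm.model.chr30.294.g. M001, M0011 and M0035 were those of Anser_cygnoides_newGene_3625 and Anser_cygnoides_newGene_4656. M001, M006 and M0011 were those of evm.model.chr11.1287.g and Anser_cygnoides_newGene_1207. These 3 sets lay within high_IMF and each held both M001 and M0011, the libraries with the most absences. M001, F0010 and F0016 were those of evm.model.chr2.181.g and Anser_cygnoides_newGene_7909. The sets of Anser_cygnoides_newGene_4443 and evm.model.chr28.49.g, seen in M0035 only, were also the same. Only Anser_cygnoides_newGene_6008 and Anser_cygnoides_newGene_6010 shared a set, M0027, F001 and F006, that held none of the 3 libraries with the most absences.

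No pair of the 1891 was complementary over all 12 libraries, with 1 model absent and the other high. The nearest pair in presence alone, Anser_cygnoides_newGene_4698 and evm.model.chr13.342.g, was opposite in 11 libraries. The Pearson r between the levels of 2 models had a median of 0.11 over the 1891 pairs (log2 of CPM plus 0.5, 12 libraries, given as a description). It ran from -0.77 to 1, so the median does not show that levels were unrelated. An r above 0.9 was seen in 13 pairs, and in each of them both models were highest in the same library, F0013 for 8 pairs, M0035 for 3, and F006 and M006 for 1 each. The last 2 were evm.model.chr5.52.g with evm.model.chr2.181.g (r = 0.91), which were also both second in F001, and evm.model.chr6.1084.g with evm.model.chr2.1277.g (r = 0.90). All libraries share their depth and composition across models, so these values do not show a link between models.

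The intermittent models were then compared between high_IMF and low_IMF. All models of the table were tested together with edgeR's quasi-likelihood test and the Benjamini-Hochberg adjustment. Whatever the letters M and F stand for follows the groups, so it cannot be told apart from intramuscular fat. Enough counts for the test were found for 39 of the 62 models, and the other 23 were not tested. Of the 39, 7 passed an adjusted p of 0.05 (17.9%), close to the background of 18.0% of all 14031 models tested. Of the 39 tested, 2 were called higher in high_IMF, where 8.47% of all tested models were, and 5 were called lower, where 9.53% were. Without M001 and M0011, 9 of 48 tested models passed (18.8%, 5 higher and 4 lower), 6 of the 7 among them, where 10.8% of all models tested in that fit passed. Log2 fold changes were below 0 for 26 and above 0 for 13 of the 39 (median -0.89, against -0.02 over all tested models). A model with absences in a group can pass the count filter only through the other libraries, of which low_IMF has more, so neither the count nor the median is support for a direction.

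The lowest adjusted p of the 7 was that of evm.model.chr38.7.g, whose groups did not overlap. It had 237 counts in F001, 100 in F006, 111 in F009, 128 in F0010, 296 in F0011, 238 in F0013 and 221 in F0016. In high_IMF it had 4 counts in M006, 13 in M0035 and 0 in M001, M0011 and M0027. Every low_IMF library thus stood at 6.61 CPM or more and every high_IMF library at 0.849 CPM or less. Its high_IMF mean was 0.214 ± 0.367 CPM (SD, n = 5), beside a low_IMF mean of 11.6 ± 4.08 CPM (SD, n = 7). It fell by 5.40 on the log2 scale in high_IMF, with an SE of 0.67 (edgeR adjusted p = 2.76e-04). The call held in 22 of 23 other fits, with an adjusted p from 2.83e-18 to 0.0521. All 7 calls and their other fits reuse the counts by which the models met the rule, so they are no independent support. For evm.model.chr38.7.g, Anser_cygnoides_newGene_3639, Anser_cygnoides_newGene_3625 and evm.model.chr14.1064.g, all absences lay in high_IMF and all high values in low_IMF. For evm.model.chr2.1277.g it was the reverse.

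Anser_cygnoides_newGene_3639 and Anser_cygnoides_newGene_3625 also fell in high_IMF with no overlap of the groups. The first had 7 counts in M001, 20 in M006 and 0 in M0011, M0027 and M0035, and 39 in F001, 114 in F006, 66 in F009, 280 in F0010, 148 in F0011, 398 in F0013 and 234 in F0016. The second had 6 counts in both M006 and M0027 and 0 in M001, M0011 and M0035, and 15 in F001, 15 in F006, 39 in F009, 37 in F0010, 67 in F0011, 118 in F0013 and 58 in F0016. In both, F001 and F006 were among the 3 lowest of the low_IMF libraries and F0013 the highest. Their log2 fold changes were -4.68 (SE 0.86, edgeR adjusted p = 0.00319) and -3.95 (SE 0.79, edgeR adjusted p = 0.00498).

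The other 2 models that fell were evm.model.chr14.1064.g and Anser_cygnoides_newGene_4799. The counts of evm.model.chr14.1064.g were 0 in every high_IMF library and 60, 17, 24, 11, 89, 3 and 22 in F001, F006, F009, F0010, F0011, F0013 and F0016. Its low_IMF mean was 1.96 ± 1.80 CPM (SD, n = 7), and it passed the test (edgeR adjusted p = 0.00528). In CPM without TMM scaling, high_IMF lay at least 54.4-fold below that mean, taking 3 counts over the 5 libraries as the limit. The TMM factors of M001 and M0011 are low, so this is no bound after scaling, nor one for each low_IMF library. F0013, the library with the fewest absences, was its lowest low_IMF library. The only high_IMF counts of Anser_cygnoides_newGene_4799 were 4 in M0035, and in low_IMF it had 0 in F001 and F006, 10 in F009, 336 in F0010, 284 in F0011, 905 in F0013 and 533 in F0016. It was thus split within low_IMF, and its groups overlapped (edgeR log2 fold change -7.85, SE 1.83, adjusted p = 0.0106). It was not called with limma-voom (adjusted p = 0.460) or without M001 and M0011 (edgeR adjusted p = 0.0602). Over 15 other fits that tested it, its adjusted p ranged from 0.00278 to 0.460.

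The 2 models that rose in high_IMF overlapped between groups. The counts of evm.model.chr6.1084.g were 0, 106, 14, 55 and 53 in M001, M006, M0011, M0027 and M0035, and 4 in F001, 5 in F006, 2 in F009, 11 in F0013, 3 in F0016 and 0 in F0010 and F0011. Its means were 2.78 ± 2.40 CPM (SD, n = 5) and 0.216 ± 0.223 CPM (SD, n = 7), and it rose by 3.85 on the log2 scale (edgeR SE 0.84, adjusted p = 0.00808). The counts of evm.model.chr2.1277.g were 4, 102, 6, 15 and 64 in the same order, and 12 in F001, 5 in F006, 13 in F0013, 2 in F0016 and 0 in F009, F0010 and F0011. It rose by 3.24 on the log2 scale (edgeR SE 0.89, adjusted p = 0.0227). Both were highest in M006. The second was not called without M006 (edgeR adjusted p = 0.0648) or without M0035 (edgeR adjusted p = 0.0590), and the first not with limma-voom (adjusted p = 0.0616). Over the other fits that tested them, the adjusted p ranged from 0.00419 to 0.0648 for the second and from 1.31e-04 to 0.0616 for the first. Without F0013, neither these 2 nor Anser_cygnoides_newGene_4799 had enough counts for the test, and 4 models were called. Anser_cygnoides_newGene_4799 was also too scarce for it without F009, F0010, F0011 or F0016, each left out alone, and evm.model.chr2.1277.g without F001.

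**Figure D5:**
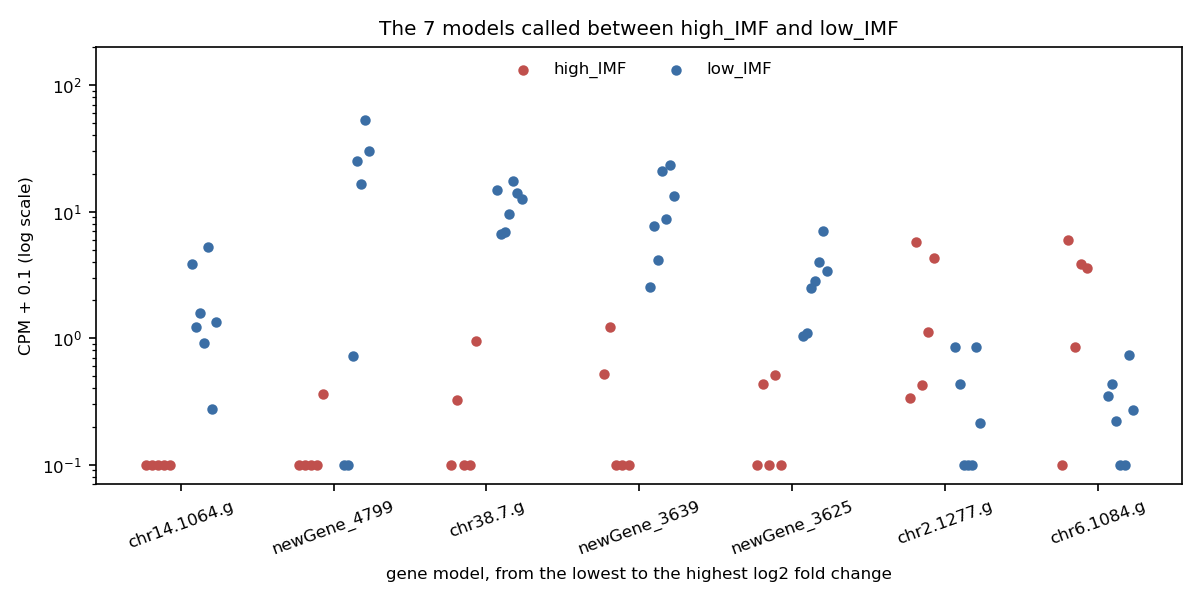
CPM plus 0.1 on a log axis for the 7 models called between the groups (1 point per library, red high_IMF, blue low_IMF, points at the bottom are counts of 0). The groups do not overlap for evm.model.chr14.1064.g, evm.model.chr38.7.g, Anser_cygnoides_newGene_3639 and Anser_cygnoides_newGene_3625, and overlap for the other 3.

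Among the 39 tested models the CPM of the groups did not overlap for 4, all of them lower in high_IMF and named above, where 10.2% of all 14031 tested models had groups that did not overlap. Absence from a whole group was seen in 6 of the 62. The 4 absent from all of high_IMF were evm.model.chr14.1064.g, evm.model.chr16.881.g, Anser_cygnoides_newGene_8922 and Anser_cygnoides_newGene_4951, and the 2 absent from all of low_IMF were Anser_cygnoides_newGene_4443 and evm.model.chr28.49.g. Any model that reaches 5 CPM and is absent from a whole group meets the rule, so these are also the only ones among the 9287 (0.0646%, or 0.0431% for high_IMF and 0.0215% for low_IMF). Without M0035 the count was 12, of which 10 were absent from all of high_IMF. Of the 6, only evm.model.chr14.1064.g was present in every library of the other group. The others were high in 3 libraries or in 1. Absences within groups were the common pattern, as 50 of the 62 models were absent from libraries of both groups, 8 only from high_IMF libraries and 4 only from low_IMF libraries. High values were found in both groups for 14 models, only in low_IMF for 30 and only in high_IMF for 18. The 36 models high in a single library fall in 1 group by construction, and low_IMF has 7 libraries against 5. Absences from 3 or more of 12 libraries can also easily reach both groups. These counts thus describe the set, and a preference for a group was not tested.

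Few placed neighbours with counts shared the absences. Within 2 running numbers of the 26 placed models, 46 models were listed beside 22 of them. Of these, 10 were absent wherever the intermittent model was, but they had next to no counts anywhere, with a mean of at most 0.0760 CPM, and 4 of them were at 0 in all libraries. The other neighbours include 27 with a mean of at least 1 CPM, beside 17 of the models, and 25 of these 27 were present in all libraries in which the intermittent model was absent. That minimum leaves out neighbours as scarce as the 6 placed intermittent models with a mean under 1 CPM. It also favours presence, as 97.7% of the 9287 models that reached 5 CPM were present in all 12 libraries. The share over all models with a mean of at least 1 CPM was not computed, so the neighbours are only described. Around evm.model.chr6.592.g, the next number on one side, evm.model.chr6.593.g, had 122 to 307 counts in all 12 libraries, and its mean was 11.3 CPM where the intermittent model was absent and 13.1 CPM where it was present. Beside evm.model.chr16.881.g, absent from 9 libraries, evm.model.chr16.880.g had 53 to 245 counts in all 12. The running numbers are an order, not a distance, and reads of overlapping models cannot be told apart.

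Of the 27, 4 had an r above 0.7 with the intermittent model. The r values of neighbours, here and for newGene models, use CPM without TMM scaling, so shared depth and composition enter them. They were not set against the r of models that are not neighbours and show no link. Next to evm.model.chr5.52.g, evm.model.chr5.53.g was likewise highest in F001 (2241 counts) and F006 (1215 counts) and lowest in F0010 (1 count) and F0016 (4 counts), but had 148 counts in F0013, where evm.model.chr5.52.g had 0 (r = 0.83 over 12 libraries). At 2 numbers from evm.model.chr38.7.g, evm.model.chr38.5.g had 34 to 104 counts in the 5 high_IMF libraries and 88 to 376 in the 7 low_IMF libraries (r = 0.89). It was lower in high_IMF as well (log2 fold change -1.50, edgeR adjusted p = 0.00816) but was absent from no library. The 2 models on its other side, evm.model.chr38.8.g and evm.model.chr38.9.g, did not pass (log2 fold changes -0.31 and -0.32, edgeR adjusted p = 0.4999 and 0.567), the second with an r of 0.72. Beside evm.model.chr2.1277.g, evm.model.chr2.1278.g was higher in high_IMF too (log2 fold change 2.47, edgeR adjusted p = 0.00340, r = 0.73).

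Among newGene models, 3 pairs of intermittent models had numbers at most 2 apart. Anser_cygnoides_newGene_6008 and Anser_cygnoides_newGene_6010 were both at 0 in M0027, F001 and F006 and present in the other 9 libraries, although their highest libraries differed (F0011 with 350 counts and F0016 with 424 counts, r = 0.61). Anser_cygnoides_newGene_4443 and Anser_cygnoides_newGene_4444 both had nearly all of their counts in M0035 (r = 0.97). Anser_cygnoides_newGene_844 had 191 counts in M006, 123 in M0027, 42 in F0011 and 32 in F0013 and 0 elsewhere. Anser_cygnoides_newGene_845 was also highest in M006 (114 counts) and absent from 4 of the 8 libraries that lacked the other (r = 0.81). Over the 35 newGene models with a mean of 1 CPM or more within 2 numbers of an intermittent newGene model, the median r was 0.36, the same as the 0.36 over the 27 placed neighbours. Neighbouring numbers of newGene models are not stated to be neighbours in the genome.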

How the data were processed

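RNA was enriched for poly(A) with oligo(dT) beads per the labels' protocols. The deposited values are raw read counts per gene model, whole numbers with no normalization, in 1 table whose 12 columns were all used. The submitters' processing notes list HISAT2 and DESeq2 without saying what each did. The counting program, build, annotation and strand setting are not given in the sources used here. Counts of 1 were rarer than counts of 2 in the deposited table (2242 against 6938), so an absence was in practice a count of 0.

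CPM was computed from library totals. For the group comparison, edgeR 4.0.16 (R 4.3.3) gave quasi-likelihood F-tests after filterByExpr and TMM scaling, adjusted over all 14031 models tested, with a threshold of 0.05. SEs were derived from the F statistic. The fit was checked on counts simulated from 1 mean per model and the library totals, with no absences or composition shifts built in. It recovered 1, 18, 42 and 50 of 50 models changed 1.5-, 2-, 4- and 8-fold, with 4 false calls among 115. This does not show how the fit performs for intermittent models. Alternatives included DESeq2 1.42.0 and limma-voom (limma 3.58.1).

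The rule for models and the lists were chosen with earlier results of these data known. Models were named as the 2 highest and 2 lowest fold changes among calls with a mean of at least 1 CPM, the 5 highest CPM, the 6 shared sets of absent libraries, absence from a whole group with presence in all of the other, the models nearest the limit of 5 CPM, the 5 clearest gaps and presence in 1 library only, and 22 models were named so. Runs of neighbouring placed models and complementary pairs yielded none. A further 13 were named after their values were seen, namely the remaining call, the 10-fold leads, the other absences from a group, the newGene pairs and the next clearest gaps. The 2 models outside the limit and the neighbours are not in the set. Muscle, fat, blood and immune marker genes could not be looked up without gene names.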

Additional observations from a re-analysis of the deposited data

Results flagged for a closer look

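Among 76 groups of per-library values (the number of absences, of high models and the TMM factor, and the CPM of each named model, in each of the 2 groups), 22 held a library far from the others by Dixon's test at the 95% level, where chance flags about 1 in 20. The models were chosen for uneven values, so more than that is no finding.

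In low_IMF, F0013 stood apart in its TMM factor (1.357, next 1.147). It also stood apart in the CPM of evm.model.chr18.338.g (32.34), Anser_cygnoides_newGene_4257 (12.59), Anser_cygnoides_newGene_7909 (10.61), Anser_cygnoides_newGene_8922 (9.907), Anser_cygnoides_newGene_4951 (9.208) and Anser_cygnoides_newGene_4444 (0.6993). F006 stood apart for evm.model.chr5.52.g (132.2 CPM, next 25.96) and evm.model.chr8.838.g (5.488 CPM), F001 for evm.model.chr11.1287.g (7.7 CPM, next 3.264) and Anser_cygnoides_newGene_4698 (0.7451 CPM), and F0011 for Anser_cygnoides_newGene_6008 (20.42 CPM, next 4.317). F0010 stood apart by lacking evm.model.chr32.20.g (0 CPM, next 4.025).

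In high_IMF, M0035 stood apart for Anser_cygnoides_newGene_4444 (21.28 CPM), Anser_cygnoides_newGene_4443 (7.246 CPM), evm.model.chr28.49.g (5.614 CPM), evm.model.chr38.7.g (0.8486 CPM) and Anser_cygnoides_newGene_4799 (0.2611 CPM). M006 stood apart for Anser_cygnoides_newGene_4698 (20.99 CPM), Anser_cygnoides_newGene_4536 (20.15 CPM), Anser_cygnoides_newGene_845 (6.363 CPM) and evm.model.chr18.338.g (0.1116 CPM). The last of these is 2 counts, and any count would be flagged where the other 4 libraries are at 0.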

How the results depend on the processing

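The size of the set depended on its limits. It was 118 models with 3 CPM in 1 library, 24 with 10 CPM, 36 with absence from 4 or more libraries, 38 without M001 and M0011 (chosen after seeing the data), and 46 to 57 with each library left out. The number of calls was 7. It was 18 with no count filter (10 higher, 8 lower, 29.0% of all 62, beside 10.7% of all models), 15 with DESeq2 (6 higher, 9 lower, 29.4% of 51, beside 20.4%), 4 without F001 and F009 (15.4% of 26, beside 10.4%), and 4 (without F0013) to 8 with each library left out. Absence from a whole group was seen in 6 models, and in 6 to 12 with each library left out, with 12 without M0035. Of the 7 calls, 0 changed sign in any other fit. Both groups share the library numbers 001, 006 and 0011. Correlations of the deviations of such libraries from their group means were 0.000164, -0.124 and 0.114. These gave no sign of pairing but cannot exclude a weak one. A replicate block made of these numbers, over 6 libraries, left 0 of 28 tested intermittent models called by edgeR, with 10 at an unadjusted p under 0.05. The share of all tested models at that unadjusted p was not computed, so the 10 are no sign of a difference in the set. With the block 13 of 13827 models passed in all. Without the block these libraries gave 1 of 28 intermittent models, beside 22 of 13827 models in all. How far depth limits the absences was not tested.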
